A study of Mus musculus with 21 samples.

Results

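Wnt pathway genes were followed in 3 mouse cell lines as a group of 50 genes: 15 Wnt ligands, 12 receptors (the Frizzled genes Fzd1 to Fzd10, Lrp5 and Lrp6), 8 secreted antagonists, 3 intracellular feedback inhibitors, 2 receptor turnover ligases, 6 R-spondins and their receptors, and 4 genes for transcription factors or a cyclin. The group was set by a list of symbols and not by any measured value. All 50 were found among the 48440 genes of the count table by their Ensembl identifiers. The C3(1)SV40 TAg mouse, in which the C3(1) promoter drives a viral T antigen, gave the mammary tumour lines M6 and M27H4. The third line, 3T3-L1, consists of preadipocytes. What was varied in them is Esrp2-as, an RNA transcribed antisense to the splicing regulator gene Esrp2.

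The M6 knockdown was made with LNA antisense gapmers (2 replicates) and set against 2 replicates that the labels name an empty vector control. Esrp2-as was overexpressed in M27H4 in 3 replicates against 3 empty vector controls, and in 3T3-L1 in 2 against 2. All cells were grown in DMEM with fetal calf serum. Each line stands for a single tumour or cell source, so a difference between lines is a difference between these cultures and not between kinds of tumour. The labels call the 14 replicates biological without saying what separates them, so p-values measure the spread between these samples. Summed counts ran from 34892461 to 328493417 a replicate. Esrp2-as itself was at 2.96 and 2.42 CPM (counts scaled to a common library size) in M6 control and at 0.527 and 0.851 in knockdown (log2 change -1.92, edgeR adjusted p = 0.363). In M27H4 it was at 0.731, 1.25 and 0.889 CPM in control and at 61.2, 65.9 and 15.9 in overexpression, and in 3T3-L1 at 0.25 and 0.355 against 45.8 and 35.5. Every treated replicate thus lay on the side its label names.

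Marker genes set the lines apart. The summed level of 8 luminal and general epithelial markers was 3297 to 4531 CPM in M6 control, 157 to 280 in M27H4 control and 17.1 to 23.7 in 3T3-L1 control. For 7 fibroblast and preadipocyte markers the order was reversed, at 417 to 533, 1856 to 2180 and 5426 to 6227 CPM. M27H4, labelled a mammary tumour line, held Cdh1 (E-cadherin) at 134 CPM but Krt8 at only 16.3, with Pdgfra, a fibroblast receptor, at 866. Most of its fibroblast sum was Pdgfra and Vim (1110 CPM). The other 5, Col1a1, Col1a2, Dlk1, Thy1 and Pdgfrb, were at 4.56, 25.2, 0.617, 15.9 and 50.3 CPM in M27H4 control. In 3T3-L1 control these were at 494, 3250, 54.2, 75.7 and 135 CPM. Of 5 adipocyte markers, Adipoq, Plin1 and Cidec had means at or below 0.0205 CPM in all 3 controls and Fabp4 was at 1.82 to 2.35. The other, Lpl, was at 0.395 CPM in M6, 177 in M27H4 and 100 in 3T3-L1 control. In bulk RNA, a change in the share of cells that express a gene and a change in RNA per cell cannot be told apart.

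Wnt proteins are secreted lipid-modified ligands. In the canonical pathway they bind a Frizzled receptor together with Lrp5 or Lrp6, which stops the destruction of beta-catenin, and beta-catenin then acts with Tcf and Lef factors on target genes. Several targets feed back on the pathway: Axin2 is part of the destruction complex, Notum is a secreted enzyme that removes the lipid from Wnt, and Rnf43 and Znrf3 are ligases that take Frizzled off the membrane. R-spondins acting through Lgr receptors counter these ligases. In the mammary gland, Wnt ligands are known for roles in branching and stem cells, and in preadipocytes canonical signalling is known to hold back fat cell formation.

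The 250 bases just before the annotated starts of 4 of these genes are shown because the genes marked different lines below: Nkd2 and Wnt11 were high in M6, Axin2 in M27H4, and Sfrp2 in 3T3-L1 and M27H4. Sequences are from RefSeq on GRCm38.p6, 5′ to 3′ on the gene's own strand, and none overlaps an exon of GENCODE M21. Capitals mark a match to CTTTGAA or CTTTGAT, letters of the Tcf and Lef binding motif, or to their reverse complements.
Nkd2, chr13:73847632-73847881, minus strand: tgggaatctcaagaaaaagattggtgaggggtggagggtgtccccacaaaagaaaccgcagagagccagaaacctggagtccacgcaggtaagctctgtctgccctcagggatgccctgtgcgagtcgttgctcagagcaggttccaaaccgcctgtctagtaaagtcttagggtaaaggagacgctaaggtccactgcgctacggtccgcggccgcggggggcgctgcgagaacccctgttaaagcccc
Wnt11, chr7:98834862-98835111, plus strand: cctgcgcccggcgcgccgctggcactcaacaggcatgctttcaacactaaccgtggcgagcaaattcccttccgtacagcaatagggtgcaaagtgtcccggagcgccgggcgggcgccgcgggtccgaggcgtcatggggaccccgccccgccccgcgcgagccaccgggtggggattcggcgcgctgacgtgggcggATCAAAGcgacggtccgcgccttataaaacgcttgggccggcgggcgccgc
Axin2, chr11:108920099-108920348, plus strand: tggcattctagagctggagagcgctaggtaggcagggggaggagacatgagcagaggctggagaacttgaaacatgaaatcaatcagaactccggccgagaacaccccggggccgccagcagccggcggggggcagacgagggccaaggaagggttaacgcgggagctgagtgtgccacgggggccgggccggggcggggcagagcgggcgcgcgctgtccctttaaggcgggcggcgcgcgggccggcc
Sfrp2, chr3:83766071-83766320, plus strand: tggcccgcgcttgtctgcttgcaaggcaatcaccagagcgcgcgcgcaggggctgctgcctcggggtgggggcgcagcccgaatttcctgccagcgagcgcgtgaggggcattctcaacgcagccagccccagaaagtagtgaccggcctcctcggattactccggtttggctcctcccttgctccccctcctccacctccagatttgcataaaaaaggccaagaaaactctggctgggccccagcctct
Of these 4, the Wnt11 stretch held a match, on the minus strand, 51 bases before its start, and the others held none of these letters. Promoter windows were present for 32 of the 50 genes, and 4 of them held a match in at least 1 of their windows: Sp5, Wnt5b, Wnt11 and Dkk1. Counted by window, 4 of the 40 windows of these genes held a match (10%), beside 7.48% of all 32851 windows of the same length. A match is a string of letters and not a measured binding site. The Axin2 stretch held 24 CG pairs at 69.2% G and C, and that of Nkd2 14 at 58.4%.

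Of the 50 genes, 33 reached a mean of 1 CPM in at least 1 of the 6 groups and are called expressed here. By role these were 9 of 15 ligands, 10 of 12 receptors, 3 of 8 secreted antagonists, 2 of 3 intracellular feedback inhibitors, both turnover ligases, 4 of 6 R-spondins and their receptors and 3 of 4 transcription factor or cyclin genes. The 17 others were Wnt1, Wnt2, Wnt2b, Wnt3, Wnt3a, Wnt10b, Fzd9, Fzd10, Dkk1, Dkk2, Dkk3, Sfrp4, Wif1, Nkd1, Lgr5, Rspo1 and Sp5, with highest group means from 0.0014 CPM for Fzd10 to 0.693 for Dkk2. Dkk1, Lgr5, Nkd1 and Sp5, often used as readouts of canonical signalling, held 2, 3, 5 and 5 counts over all libraries together. Of the 12 receptors 10 reached 1 CPM in each of the 6 groups, while the ligands that did so numbered 6 in M6, 7 in M27H4 and 4 in 3T3-L1 control. Among the 33 expressed genes the highest control mean lay in M6 for 12, in M27H4 for 14 and in 3T3-L1 for 7.

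**Figure D1:**
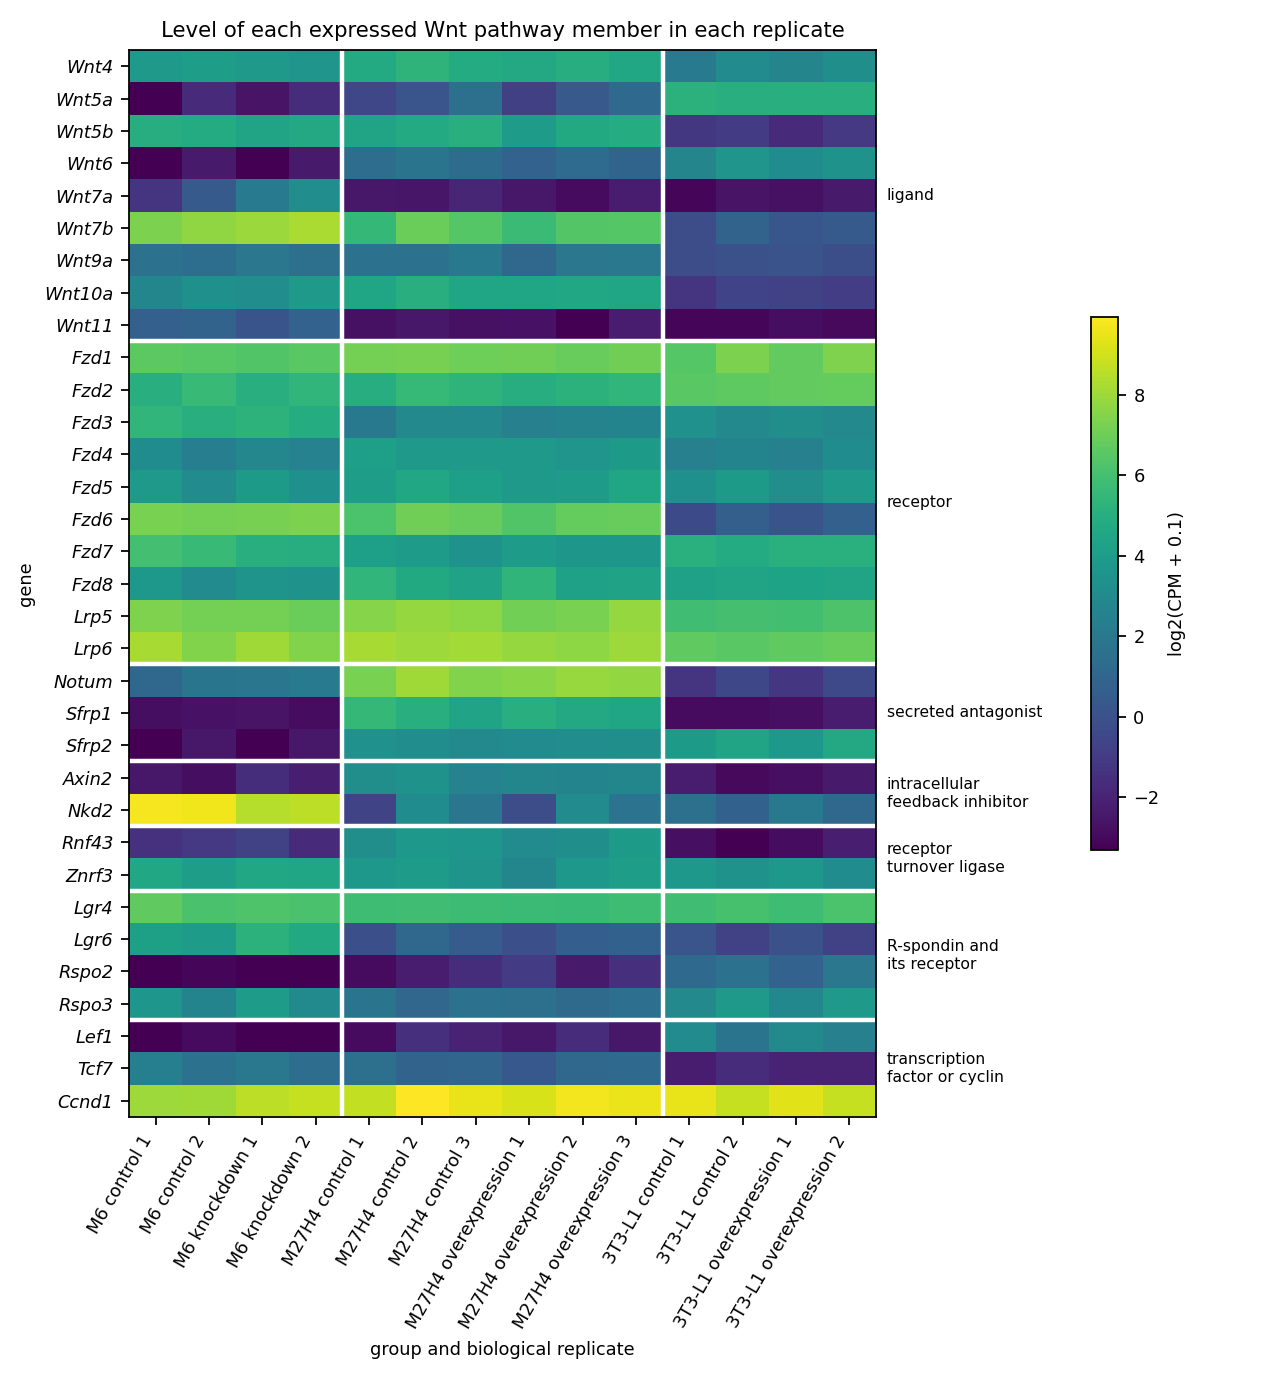
Heat map of log2(CPM + 0.1) for the 33 expressed genes (rows, grouped by role) in the 14 replicates (columns). Lgr4, Fzd1, Lrp5 and Lrp6 are bright in all lines, while Nkd2 is bright in M6, Notum, Sfrp1, Axin2 and Rnf43 in M27H4, and Wnt5a and Lef1 in 3T3-L1.

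Levels of different genes were set side by side per kb of exon. Among ligands, Wnt7b, a ligand of epithelia that can signal through the canonical pathway, led in M6 control at 37.9 CPM per kb ± 8.05 (SD, n = 2). It was followed by Wnt5b at 11.1 ± 0.71, and their replicates did not overlap. Wnt7b held 65.2% of the per-kb ligand level there and Wnt5b 19.5%. In M27H4 control Wnt7b (17.4 ± 8.19, n = 3), Wnt10a (10.8 ± 2.41) and Wnt5b (10.1 ± 1.92) came first per kb, and the replicates of neighbours in this order overlapped. Wnt5a, known for non-canonical signalling, led in 3T3-L1 control at 4.47 CPM per kb ± 0.379 (n = 2), with Wnt6 at 4.18 ± 1.73 overlapping it. Wnt7b thus led in M6 control, while in M27H4 and 3T3-L1 control no single ligand stood apart.

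Among Frizzled receptors per kb, Fzd6 (30.9 CPM per kb ± 2.18, n = 2) was above Fzd1 (22.6 ± 1.09) in M6 control. In M27H4 control Fzd1 (33.7 ± 2.44, n = 3) was above Fzd6 (22.4 ± 6.46). In 3T3-L1 control Fzd1 (29.4 ± 11.8, n = 2) overlapped Fzd2 (27 ± 1.34), and Fzd6 was at 0.231 CPM per kb. Fzd1 was thus among the leading Frizzled genes of every line. The co-receptors Lrp6 and Lrp5 were at 17.3 and 16.0 CPM per kb in M6, 20.2 and 21.3 in M27H4, and 7.29 and 6.39 in 3T3-L1 control. Among R-spondin receptors, Lgr4 led in all 3 controls at 14.7, 9.6 and 10.7 CPM per kb, and Lgr5 was listed with 3 counts over all libraries.

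The controls of the 3 lines were then compared. These 3 comparisons share control samples and are not independent of each other. Of the 50 genes, 41 passed the filter on low counts and were tested. A gene that passed because 1 line expresses it had to differ, so the counts that follow only describe the group. Between M27H4 and M6 control, 27 of the 41 were called (edgeR, adjusted p under 0.05 over 21237 genes), 15 higher and 12 lower in M27H4. Of all genes tested, 30.2% were called, 15.2% higher and 15% lower. Between 3T3-L1 and M6 control it was 30 of 41, 9 higher and 21 lower in 3T3-L1, with 39.4% of all genes called (20.5% higher and 18.9% lower). Between 3T3-L1 and M27H4 control it was 22 of 41, 8 higher and 14 lower in 3T3-L1, with 36.6% of all genes called (18.9% higher and 17.8% lower). The median log2 difference of the 41 genes was -0.11, -0.97 and -0.90 in the 3 comparisons, against 0.02, 0.05 and 0.02 over all genes tested. In at least 1 comparison 36 genes were called, in all 3 comparisons 10, and 5 in none. Of the 10, Fzd7, Lef1, Rspo2, Wnt4, Wnt5a, Wnt6 and Wnt7b lost at least 1 call in another fit or with a replicate left out. Notum, Rnf43 and Wnt10a lost no call.

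Among secreted antagonists, Notum and Sfrp1 stood highest in M27H4. Notum was at 157, 263 and 173 CPM in M27H4 control, at 2.17 and 3.41 in M6 control and at 0.305 and 0.63 in 3T3-L1 control. No replicate of a line reached the range of another. The log2 difference was 6.13 (SE 0.44, edgeR adjusted p = 3.74e-07) for M27H4 over M6 and -8.75 (SE 0.50, adjusted p = 5.09e-08) for 3T3-L1 against M27H4. Antisense genes share 38.1% of the exon bases of Notum, and as the counting strand is not given in the sources used here, their reads cannot be told apart from those of Notum. The same limit holds for 11 of the 50 genes, 6 of them with over 10% of their exon bases shared: beside Notum these were Ccnd1 (23.4%), Fzd5 (17.8%), Sfrp2 (16.1%), Lef1 (13.7%) and Rspo3 (13.1%).

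Sfrp1, a secreted Frizzled-like protein that binds Wnt, was at 46.0, 31.6 and 21.4 CPM in M27H4 control, at 0.0414 and 0.055 in M6 control and at 0.0319 and 0.0323 in 3T3-L1 control. M27H4 held 11484 counts of it in its controls, against 19 in M6 and 11 in 3T3-L1. M27H4 exceeded M6 by 9.28 on the log2 scale (SE 0.53, edgeR adjusted p = 8.1e-08), and 3T3-L1 was lower than M27H4 by a log2 difference of -9.97 (SE 0.54). Its relative Sfrp2 was at 10.2, 8.93 and 7.4 CPM in M27H4 control, at 15.0 and 21.1 in 3T3-L1 control and at 0 and 0.0841 in M6 control. Both lines exceeded M6, by 7.11 (SE 0.70, adjusted p = 4.79e-06) and 8.14 (SE 0.73, adjusted p = 1.6e-06) on the log2 scale, and the difference between them was not called (log2 1.03, adjusted p = 0.0951), though DESeq2, limma voom and the fit of these 2 groups alone called it (adjusted p = 0.0241, 0.0148 and 0.00946). Without M6 control replicate 2, the one with Sfrp2 counts, the fitted differences from M6 were 13.21 and 14.24 and have no fixed size, since M6 is then at 0. Dkk2, an antagonist that binds Lrp5 and Lrp6, was low throughout, with 164 counts in M6 control, 3 in M27H4 control and 0 in 3T3-L1 control. By these counts M6 was 57.3-fold above M27H4 (interval at 95% 19.3 to 281, counting error only). Without M27H4 control replicate 3, where the 3 counts lay, M27H4 is at 0. M6 was at least 52.5-fold above 3T3-L1, where 3 counts over both replicates were taken as the floor.

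Feedback genes had different orders of lines. Axin2, often read as a general target of canonical signalling, was at 9.23, 11 and 5.8 CPM in M27H4 control. In M6 control it was at 0.0828 and 0.0388 CPM and in 3T3-L1 control at 0.1 and 0.0242. Rnf43 was likewise highest in M27H4, at 9.31, 13.5 and 12.4 CPM in M27H4 control, 0.269 and 0.365 in M6 control and 0.0455 and 0 in 3T3-L1 control. For M27H4 over M6 the log2 difference was 7.41 (SE 0.67, edgeR adjusted p = 2.28e-06) for Axin2 and 5.16 (SE 0.67, adjusted p = 5.39e-05) for Rnf43. Without M6 control replicate 2 that of Axin2 was 6.71. Znrf3, the other ligase, was at closer levels, at 24.4 and 17.3 CPM in M6 control, 13.5, 16.2 and 11.5 in M27H4 control and 13.6 and 11.3 in 3T3-L1 control. It was called in none of the 3 comparisons (lowest adjusted p = 0.118). Axin2, Notum and Rnf43 all lie on chromosome 11, at 108920349 to 108950783, 120653788 to 120661175 and 87662722 to 87735539 (GRCm38). Znrf3 lies there too, at 5276324 to 5444847, as do Wnt3, Wnt3a, Wnt9a, Fzd2 and Tcf7 of the listed genes. The part of location in these levels was not tested.

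Nkd2 was instead high in M6 alone. This gene (ENSMUSG00000021567, chromosome 13, 73818534 to 73847631, minus strand) encodes an inhibitor that binds Dishevelled. It was at 863 and 819.8 CPM in M6 control and at 174 CPM per kb led all 50 genes there on the per-kb scale. M27H4 control held 0.569, 8.53 and 3.56 CPM and 3T3-L1 control 2.9 and 1.65. The log2 difference was -7.63 for M27H4 (SE 1.22, edgeR adjusted p = 0.00119) and -8.53 for 3T3-L1 (SE 1.52, adjusted p = 0.00179), both against M6. Without M27H4 control replicate 2 the first was -8.65. A single transcript, Nkd2-201, held 82.0 to 98.5% of the Nkd2 counts in the 7 M6 columns.

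The low Nkd2 levels outside M6 differed with the number that ends the column name. There are 5 such numbers, taken here as sequencing lanes and written as A to E in numeric order. The column names do not say what the number stands for. In lane D, whose labelled columns were all M27H4, the M27H4 columns were at 0.579 and 0.802 CPM of the column total. In lanes B, C and E, which also held M6 libraries, they were at 3.2 to 10.4. The 3T3-L1 columns, all in those 3 lanes, were at 1.68 to 4.81. Wnt5a in M6 showed the same kind of difference, at 0 to 0.0899 CPM in lane A, whose labelled columns were all M6, and at 0.211, 0.231 and 0.332 in the shared lanes. Wnt6 and Sfrp2 in M6 did so too. They were at no more than 0.0599 and 0.0449 CPM in lane A and at 0.0891 to 0.157 and 0.081 to 0.138 in the shared lanes. Sfrp1 and Axin2 in M6 did not, at 0.0448 to 0.12 and 0.0897 to 0.249 CPM in lane A and at most 0.0651 and 0.12 in the shared lanes. In M27H4 lane and replicate cannot be told apart, since lane D held replicate 1, lanes B and C replicate 2 and lane E replicate 3. The part of the lane in these values was not tested. With the M6 columns of lane A and the M27H4 columns of lane D alone, a setting chosen after seeing the data, 14 of the 27 calls between M27H4 and M6 remained and no other gene was called. The 14 included Notum, Sfrp1, Sfrp2, Axin2, Rnf43, Wnt7b and Nkd2, whose log2 difference was then -10.50. M27H4 has 1 replicate a group in that fit, which is assumed to vary like M6.

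**Figure D2:**
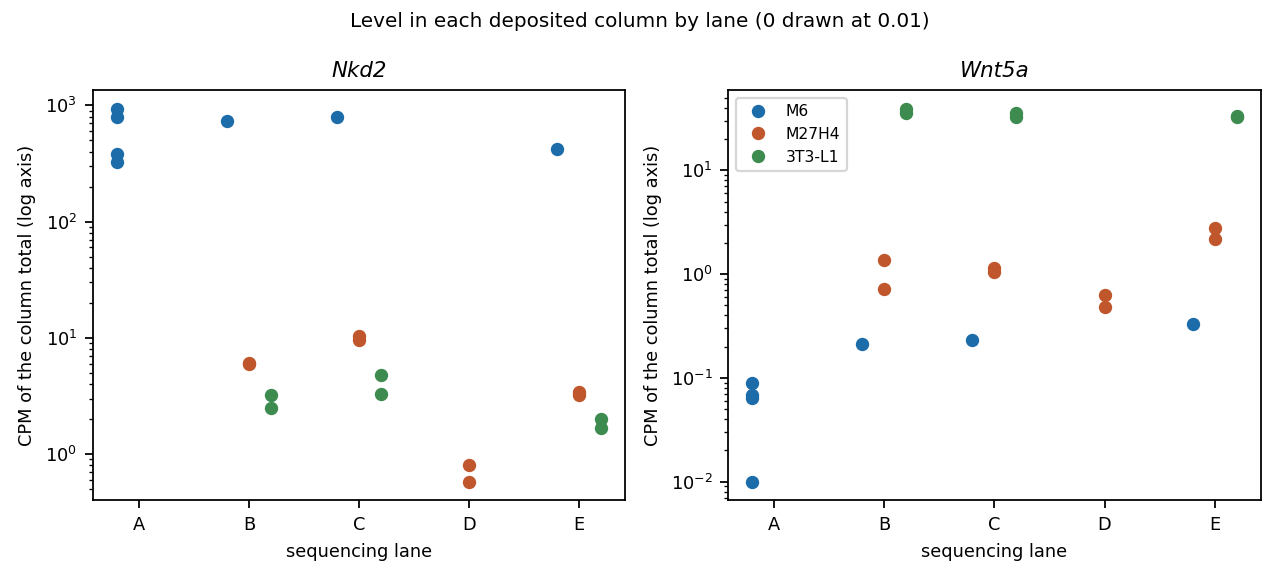
Level of Nkd2 (left) and Wnt5a (right) in each deposited column, as CPM of the column total on a log axis. Columns are placed by line and by the number taken as the sequencing lane (A to E). A level of 0 is drawn at 0.01. Nkd2 in M27H4 lies between 0.579 and 0.802 in lane D and between 3.2 and 10.4 in the lanes shared with M6, and Wnt5a in M6 is lowest in lane A.

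Among ligands, 3T3-L1 differed most from the tumour lines. Wnt5a was at 37.1 and 32.9 CPM in 3T3-L1 control, at 0.618, 1.01 and 2.9 in M27H4 control and at 0 and 0.207 in M6 control. Wnt6 had the same order of lines, at 6.49 and 11.8 CPM, at 2.55, 3.37 and 2.48, and at 0 and 0.097. For both genes the ranges of the 3 lines lay apart. For Wnt5a the log2 difference from M6 was 7.94 in 3T3-L1 (SE 1.16, edgeR adjusted p = 0.000273), and for Wnt6 it was 7.02 (SE 0.79, adjusted p = 1.19e-05). M6 control replicate 1 held none of either, and without replicate 2 the fitted values were 15.20 and 13.26, with no fixed size. The Wnt5a call between M27H4 and M6 (log2 3.42, adjusted p = 0.0195) ended in 4 alternatives, among them the fit without M6 control replicate 1. It was 2.53 without M27H4 control replicate 3 and 10.68 without M6 control replicate 2.

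Wnt7b ran the other way, at 158 and 214 CPM in M6 control, 44.8, 125 and 85.9 in M27H4 control and 0.774 and 1.75 in 3T3-L1 control. It was lower in 3T3-L1 by a log2 difference of -7.21 against M6 (SE 0.58, edgeR adjusted p = 8.81e-07) and of -6.09 against M27H4 (SE 0.54), or -7.93 and -6.76 without 3T3-L1 control replicate 2. The call between M27H4 and M6 (log2 -1.13, adjusted p = 0.0472) was close to the threshold and ended in 6 alternatives, among them the fits without M6 control replicate 1 or 2 and without M27H4 control replicate 1 or 3. Wnt5b was at 30.8 and 28.1 CPM in M6, at 21.4, 27.4 and 31.5 in M27H4 and at 0.341 and 0.404 in 3T3-L1 control, so the tumour lines overlapped and the preadipocytes lay apart (log2 -6.17 against M27H4, SE 0.37, adjusted p = 7.3e-08). Wnt10a was highest in M27H4 control (23.2, 33.4 and 23.1 CPM), lower in M6 (6.62 and 9.91) and lowest in 3T3-L1 (0.309 and 0.533). Wnt10a and Wnt6 are neighbours on chromosome 1, at 74791516 to 74804179 and 74771892 to 74785322, and their lines ran in different orders. Wnt11, a ligand of non-canonical signalling, was at 1.55 and 1.74 CPM in M6 control and at no more than 0.0786 in any control replicate of the other lines (log2 -4.74 for M27H4 and -6.74 for 3T3-L1 against M6). Wnt4 was highest in M27H4 control at 27.8, 40.1 and 28.1 CPM, with 14.4 and 17.2 in M6 and 4.48 and 8.24 in 3T3-L1, and was called in all 3 comparisons. Its call between M27H4 and M6 (log2 1.01, adjusted p = 0.016) ended without M6 control replicate 1 or M27H4 control replicate 2. Wnt9a was at 2.72 to 4.0 CPM in the tumour lines and at 0.787 and 0.864 in 3T3-L1 control, lower there by -1.79 against M6 and -2.01 against M27H4.

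Of the receptors, Fzd6 differed most. It was at 156 and 142 CPM in M6 control, at 73.2, 133 and 118 in M27H4 control and at 0.701 and 1.53 in 3T3-L1 control. The difference between the tumour lines was not called (log2 -0.47, edgeR adjusted p = 0.305), while 3T3-L1 was lower than M6 by -7.08 (SE 0.46, adjusted p = 8.63e-08) and than M27H4 by -6.61 (SE 0.44) on the log2 scale. Without 3T3-L1 control replicate 2 these were -7.76 and -7.24. Other Frizzled genes differed by less: Fzd2 was higher in 3T3-L1 than in M6 (log2 1.23) and M27H4 (1.33), Fzd3 was higher in M6 than in M27H4 (log2 -2.59) and 3T3-L1 (-2.08), and Fzd1 was called in no comparison. Fzd8 and Fzd4 were higher in M27H4 than in M6 by 1.44 and 1.18 on the log2 scale, calls that ended without M6 control replicate 2, and Fzd5 was called in no comparison. Fzd7 was at a mean of 55.4 CPM in M6, 14.8 in M27H4 and 31.3 in 3T3-L1 control and was called in all 3 comparisons. Its call between 3T3-L1 and M6 ended in the fit of those 2 groups alone. It also ended without M6 control replicate 1 or 3T3-L1 control replicate 2. Fzd9 was below 1 CPM throughout, at 0.6 and 0.66 in M6 control and 0.0565 to 0.195 in the others. Lrp5 and Lrp6 were lower in 3T3-L1 than in M6 by -1.32 and -1.25, both called.

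R-spondin receptors split by line as well. Lgr6 was at 18.5 and 16.2 CPM in M6 control, at 0.829, 2.02 and 1.33 in M27H4 control and at 1.01 and 0.493 in 3T3-L1 control, with log2 differences of -3.62 and -4.52 against M6 (SE 0.42 and 0.51). The second was -5.18 without 3T3-L1 control replicate 1. Lgr4 was nearly level, at 103 and 71.0, at 56.1, 59.4 and 53.8, and at 57.7 and 68.7 CPM, and its call between M27H4 and M6 (log2 -0.62, edgeR adjusted p = 0.0203) ended in 4 alternatives, among them those without M6 control replicate 1 or M27H4 control replicate 3. Rspo2, an R-spondin ligand, was at 2.18 and 3.02 CPM in 3T3-L1 control and at no more than 0.228 in any control replicate of the tumour lines. Rspo1 held 61 counts in M6 control, 3 in M27H4 control and 0 in 3T3-L1 control. By these counts M6 was 21.3-fold above M27H4 (interval at 95% 6.96 to 106) and at least 19.5-fold above 3T3-L1. The 3 counts all lay in M27H4 control replicate 2, without which M27H4 is at 0, and the call between M27H4 and M6 ended in 6 alternatives. Rspo3 was at 12.4 and 6.21 CPM in M6, 7.43 and 14.2 in 3T3-L1 and 2.01 to 3.36 in M27H4 control. It was lower in M27H4 than in M6 (log2 -1.72, adjusted p = 0.00634), a call that ended without M6 control replicate 1.

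The nuclear factors also differed by line. Lef1 was at 8.37 and 3.38 CPM in 3T3-L1 control, at 0.0325, 0.252 and 0.147 in M27H4 control and at 0 and 0.0291 in M6 control, a log2 difference of 7.95 from M6 (SE 0.98, edgeR adjusted p = 4.16e-05) and of 5.23 from M27H4 (SE 0.68). The M6 value rests on 9 counts, all in replicate 2, without which the fitted difference was 12.62. Without 3T3-L1 control replicate 1 the 2 differences were 7.15 and 4.45, and without M27H4 control replicate 2 the second was 5.90. Tcf7 had the opposite order, at 5.26 and 2.99 CPM in M6, 2.84, 1.74 and 1.89 in M27H4 and 0.105 and 0.226 in 3T3-L1 control. The lines high in Tcf7 were thus low in Lef1. Ccnd1, the gene of the G1 cyclin D1, was at 258 and 269 CPM in M6 control, at 420, 986 and 736 in M27H4 control and at 719 and 436 in 3T3-L1 control. Both lines exceeded M6 (log2 1.44, adjusted p = 0.00532, and 1.13, adjusted p = 0.0224), and the second call ended without M6 control replicate 1 or 2 or 3T3-L1 control replicate 1.

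**Figure D3:**
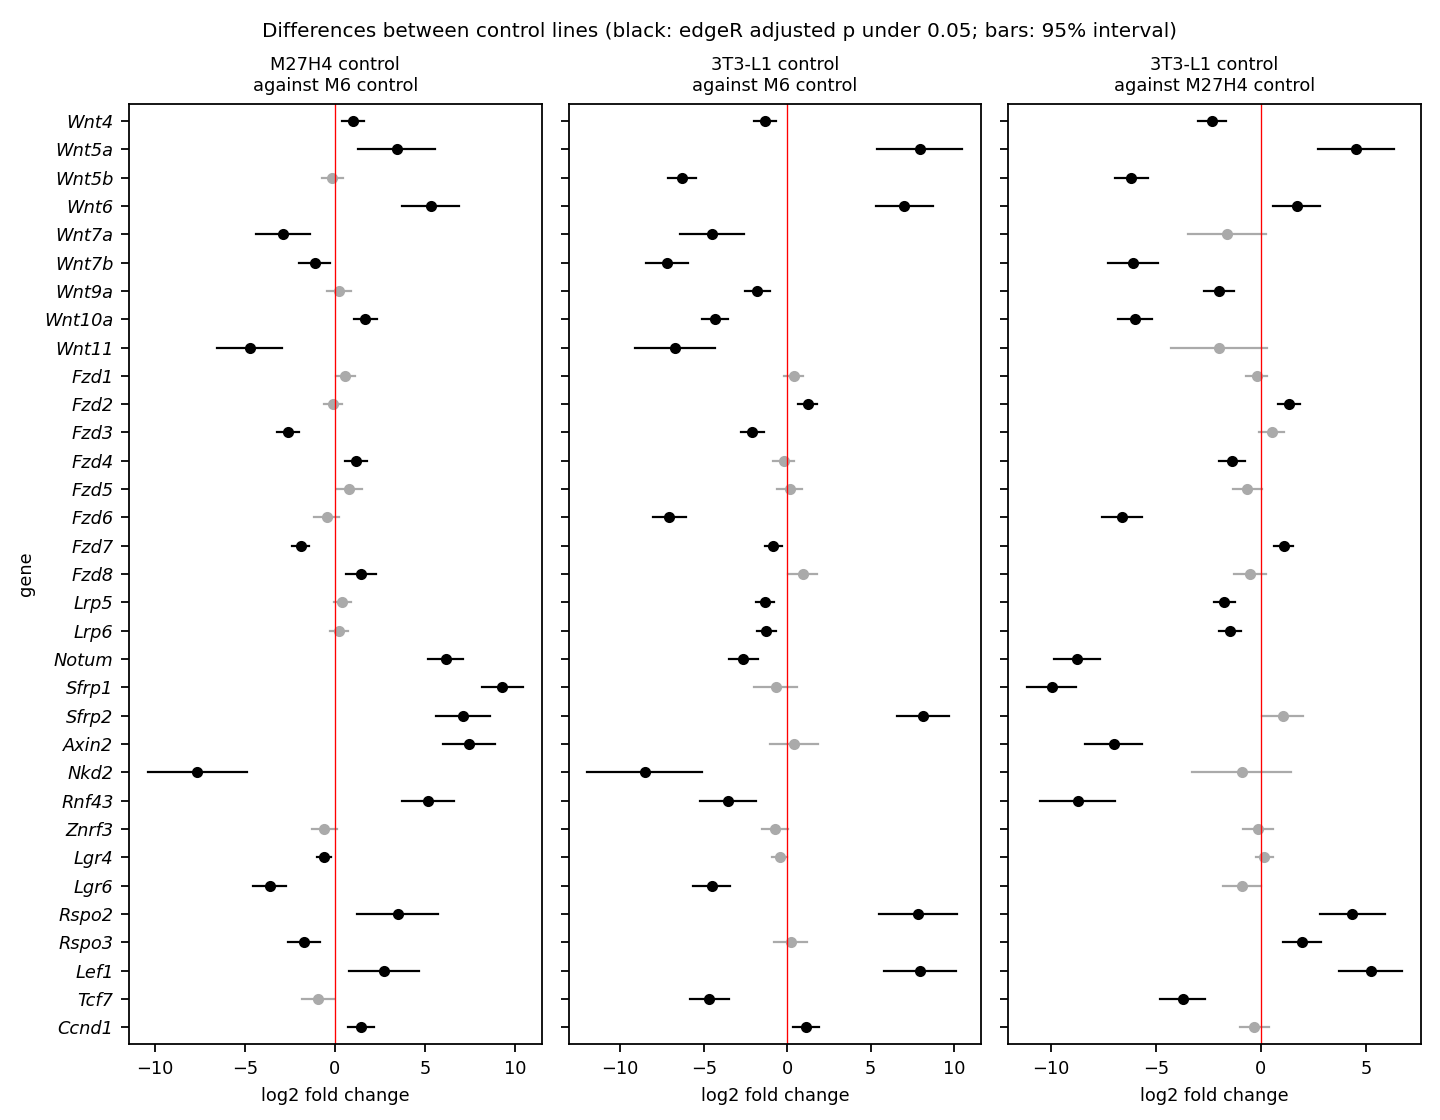
Log2 fold change of each expressed gene (rows) in the 3 comparisons of control lines, with 95% intervals; black marks genes with an edgeR adjusted p under 0.05 and grey the others. The comparisons share control samples. Sfrp1 at 9.28 is the highest point for M27H4 over M6 and Nkd2 at -7.63 the lowest.

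Esrp2-as was then lowered in M6, and none of the 41 genes tested was called (edgeR). Of all 21237 genes tested 29 were called, 0.137%. At an unadjusted p under 0.05 there were 4 of the 41, Wnt7a, Fzd7, Axin2 and Dkk3, against 1331 of 21237 genes (6.27%). DESeq2 and limma voom each called 1 of the 50 genes, Wnt7a in both. The median log2 change of the 41 was -0.11, against -0.03 over all genes.

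Wnt7a, a ligand close in sequence to Wnt7b, was at 0.311 and 1.27 CPM in M6 control and at 4.54 and 8.86 in knockdown. Both knockdown replicates lay above both controls. The log2 change was 3.03 (SE 0.75, interval at 95% from 1.40 to 4.66), with an edgeR adjusted p of 0.216, a DESeq2 adjusted p of 0.00386 and a limma voom adjusted p of 0.0261. Its largest adjusted p was 0.626, without M6 control replicate 1, where the log2 change was 2.45. It was also 2.45 without knockdown replicate 2, and 4.44 without control replicate 2. Within lane A alone it was 3.01, with columns at 0.336 and 1.3 CPM in control and 4.87 and 8.39 in knockdown. Wnt7a rests on 407 counts in control and 1799 in knockdown. In the other lines it was at most 0.171 CPM in any replicate.

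Fzd7, a receptor of basal mammary cells, was at 62.1 and 48.7 CPM in M6 control and at 33.4 and 30.7 in knockdown. The groups did not overlap, and the log2 change was -0.79 (SE 0.24, interval -1.31 to -0.28, edgeR adjusted p = 0.401). Without M6 control replicate 1 it was -0.54. In the same samples 4 basal markers summed to 1083 to 1842 CPM in control and 594 to 1247 in knockdown, ranges that overlap. Nearly all of this was Krt14, at a mean of 1460 against 913 CPM. Trp63 was at 1.68 against 1.06, Krt5 at 3.47 against 4.99 and Acta2 at 1.41 against 1.54. The sum of the 7 fibroblast markers, 417 to 533 against 275 to 352 CPM, was mostly Vim (mean 428 against 278). The part of these markers in the Fzd7 values was not tested. Axin2 held 16 counts in control and 32 in knockdown (0.0828 and 0.0388 against 0.232 and 0.118 CPM), and Dkk3 12 and 0 counts. These counts are too few to compare the groups.

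Nkd2 was at 863 and 819.8 CPM in control and at 357 and 401 in knockdown, and is described here although its values were seen first. The replicates of each group lay close together and the groups far apart. The log2 change was -1.15 (-1.14 with RLE factors), and its SE differed with the samples that set the spread. In the fit of all 6 groups the SE was 1.11 (edgeR adjusted p = 1), and that fit includes the M27H4 replicates, whose Nkd2 levels differed by lane. In a fit of the 4 M6 replicates alone the SE was 0.26 (unadjusted p = 0.00543, adjusted p = 0.625). By lane, control columns were at 934 and 794 CPM and knockdown columns at 383 and 328 in lane A. The knockdown column of lane E was at 425.

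The M6 groups did not overlap for 13 of the 41 genes tested, 6 higher and 7 lower in knockdown. The share of all genes with groups apart was not counted, and with 2 replicates a group such separation often arises by chance. The genes not yet named are given here after their values were seen. Wnt7b was at 158 and 214 CPM in control and at 246 and 307 in knockdown (log2 0.57, SE 0.44, edgeR adjusted p = 1). Lgr6 was at 18.5 and 16.2 against 36.7 and 26.9 CPM (log2 0.87, SE 0.44, adjusted p = 0.867). Ccnd1 was at 258 and 269 against 395 and 442 CPM (log2 0.67, SE 0.35, adjusted p = 0.892). Notum was at 2.17 and 3.41 against 3.65 and 4.18 CPM (log2 0.47). Lower in knockdown were Wnt5b, at 30.8 and 28.1 against 21.5 and 25.7 CPM (log2 -0.32), and Wnt4, at 14.4 and 17.2 against 14.1 and 12 CPM (log2 -0.28). Fzd9, Sfrp4 and Rspo1, all below 1 CPM, were lower too, with log2 changes of -1.33, -1.95 and -0.77. None of these passed the test, and the interval for Ccnd1 ran from -0.10 to 1.43. Lef1 and Rspo2 held 9 and 4 counts in control and 0 in knockdown, too few to compare.

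**Figure D4:**
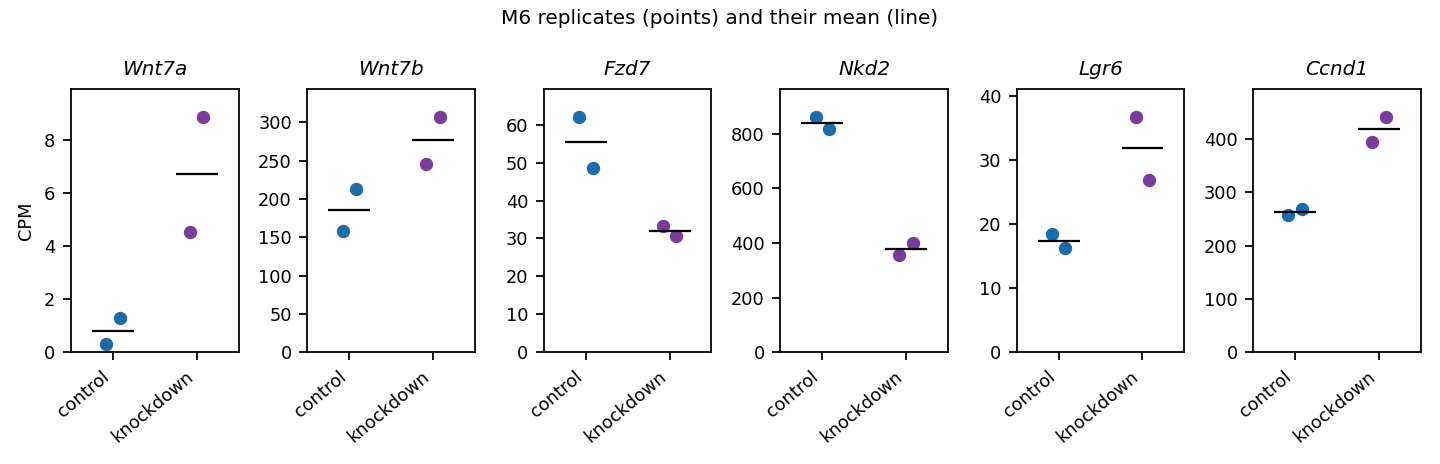
CPM of 6 genes in the M6 replicates (points; 2 a group) with the group mean as a line, each on its own axis from 0. All 6 are among the 13 of 41 genes tested whose M6 groups did not overlap. That their control and knockdown points lie apart thus follows from the choice of genes. None of the 6 had an edgeR adjusted p under 0.05 in the fit of all 6 groups without a block.

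In M27H4, overexpression of Esrp2-as left none of the 41 genes called (edgeR), with 2 of all genes tested called (0.00942%). None of the 41 reached an unadjusted p under 0.05, against 358 of all genes (1.69%), and DESeq2 and limma voom also called none. The 4 with the smallest p were Wnt10b, Wnt2b, Lrp5 and Rspo2. Wnt10b was at 0.179, 0.262 and 0.171 CPM in control and 0.278, 0.306 and 0.338 in overexpression (log2 0.58, SE 0.38). Wnt2b was at 0.0975, 0.173 and 0.188 against 0.111, 0.063 and 0.0825 CPM (log2 -0.95, SE 0.64). Lrp5 was at 186, 232 and 204 against 138, 155 and 229 CPM (log2 -0.25, SE 0.19), and Rspo2 at 0.0325, 0.0996 and 0.228 against 0.389, 0.0924 and 0.264 (log2 0.85, SE 0.67). Only Wnt10b among them had groups that did not overlap. Over the 41 genes this held for 2, Wnt10b (higher) and Wnt6 (lower), and the share over all genes was not counted. Wnt6 was at 2.48 to 3.37 CPM in control and at 1.7 to 2.4 in overexpression.

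The genes that marked M27H4 were at these levels under overexpression. Notum was at 193, 239 and 225 CPM (log2 change 0.15, interval -0.48 to 0.78), Sfrp1 at 31.5, 25.4 and 22.9 (-0.31, -0.92 to 0.30), Axin2 at 6.64, 6.24 and 6.82 (-0.40, -1.24 to 0.43) and Rnf43 at 8.45, 9.73 and 14.9 (-0.09, -1.08 to 0.90). All 4 overlapped their controls. Over the 33 expressed genes the change ran from -0.70 to 0.85, and for 23 of them the whole interval lay within 1 log2 unit of 0.

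In 3T3-L1, overexpression also left none of the 41 called (edgeR), with 1 of all genes tested called (0.00471%). None had an unadjusted p under 0.05, against 201 of all genes (0.946%), and DESeq2 and limma voom called none. The 4 smallest p were for Wnt2b, Sfrp1, Rnf43 and Dkk2, all at trace level. Wnt2b was at 0.041 and 0.0646 CPM in control and 0.00419 and 0.0266 in overexpression (log2 -1.95, SE 0.94), and Sfrp1 at 0.0319 and 0.0323 against 0.0461 and 0.107 (log2 1.11, SE 0.56). Rnf43 was at 0.0455 and 0 against 0.0377 and 0.115 CPM (log2 1.34, SE 0.85), and Dkk2 at 0 and 0 against 0 and 0.0266. Wnt5a, Sfrp2 and Lef1, which marked 3T3-L1, were not called and overlapped their controls. Wnt5a was at 33.5 and 33.4 CPM (log2 -0.07, interval -1.90 to 1.77), Sfrp2 at 13.2 and 26.0 (0.12, -0.97 to 1.21) and Lef1 at 7.73 and 5.48 (0.17, -1.27 to 1.60). Fzd2, also highest in 3T3-L1, was at 95.3 and 102 CPM in control and at 108 and 111 in overexpression, so its groups lay apart. The groups did not overlap for 5 of the 41 genes, 4 higher and 1 lower in overexpression. The share over all genes was not counted here either.

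Whether the overexpression effects differed between M27H4 and 3T3-L1 was tested as the difference itself. None of the 41 genes was called (edgeR), with 1 of all genes tested called (0.00471%). At an unadjusted p under 0.05 there was 1, Sfrp1 (log2 difference -1.43, SE 0.63, interval -2.79 to -0.06, adjusted p = 1), and DESeq2 and limma voom called none.

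The precision of the 3 treatments differed. The median SE of the 33 expressed genes was 0.37 in M6, 0.29 in M27H4 and 0.39 in 3T3-L1, and the interval lay within 1 log2 unit of 0 for 14, 23 and 17 of them. For the others the interval reached a 2-fold change in at least 1 direction.

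**Figure D5:**
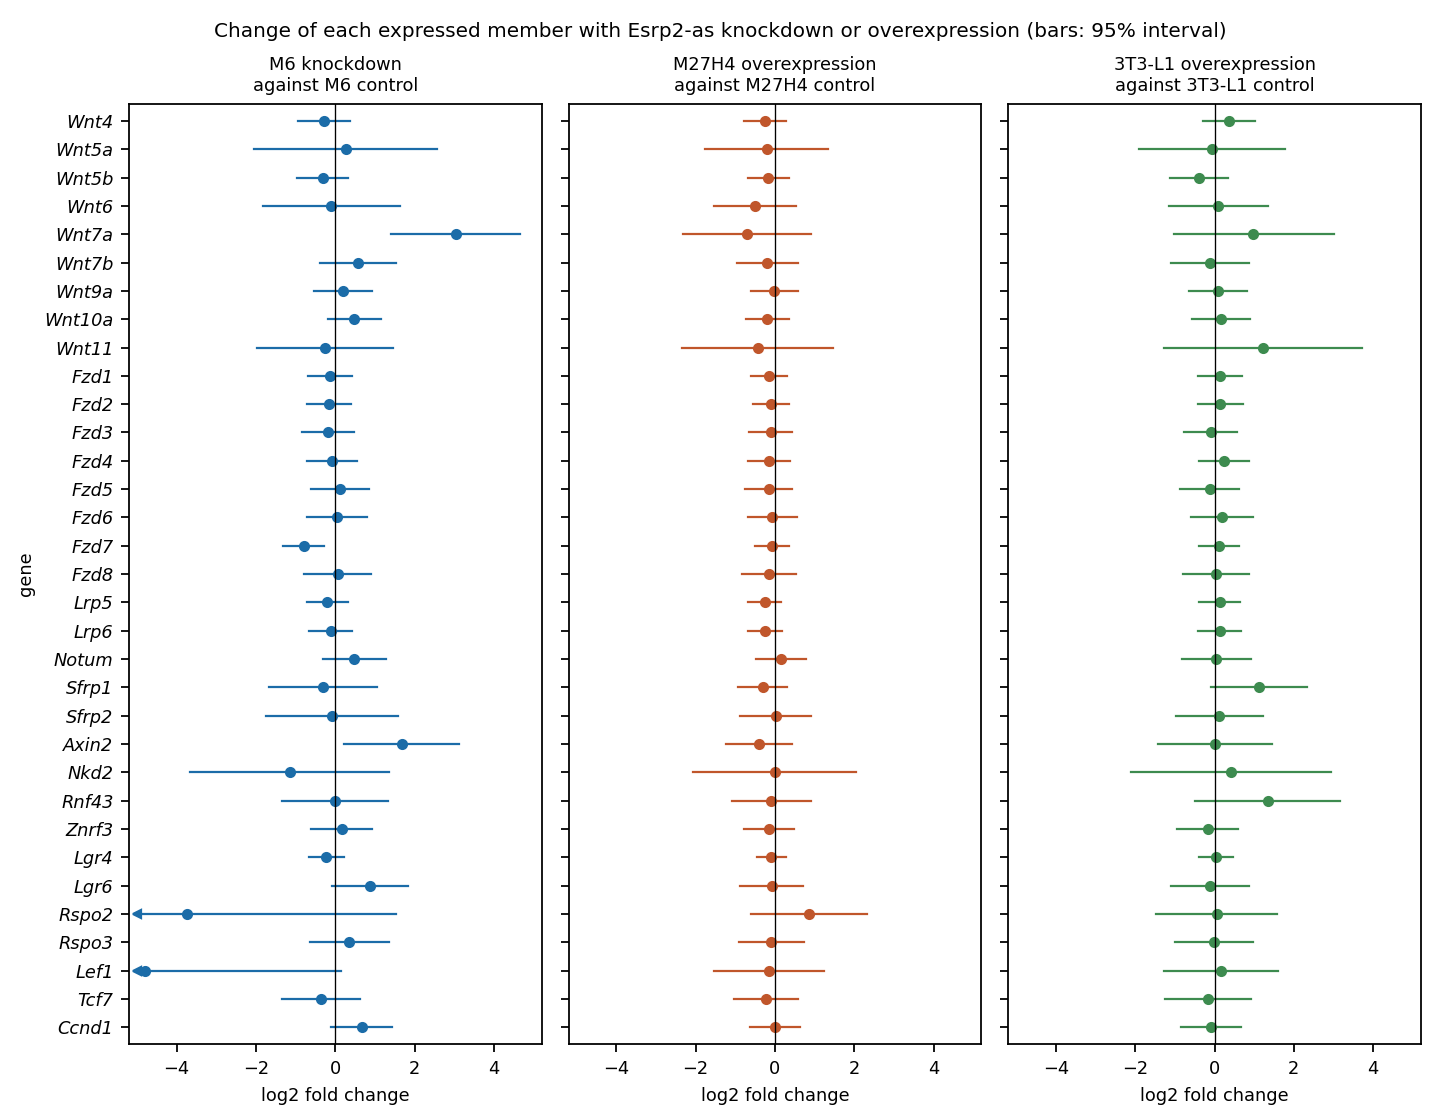
Log2 fold change of each expressed gene (rows) with knockdown in M6 and overexpression in M27H4 and 3T3-L1, with 95% intervals; arrows mark intervals that run beyond 5 log2 units. Wnt7a at 3.03 in M6 lies farthest to the right, and none of the changes had an edgeR adjusted p under 0.05 in the fit of all 6 groups without a block.

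A list of 84 other genes of the pathway was read in the same fit, of which 74 were tested. With Esrp2-as knockdown none was called (edgeR), and 11 of 74 had an unadjusted p under 0.05, against 6.27% of all genes. The smallest was for Prickle1, a planar polarity gene, at 0.644 CPM in control and 0.113 in knockdown (log2 -2.27, SE 0.41, adjusted p = 0.0593). DESeq2 called it (adjusted p = 0.000378), as did the fit with no filter (0.00492) and that without M6 control replicate 2 (0.044). Ror1, a Wnt5a receptor, had a log2 change of -0.89 (adjusted p = 0.479) and Wls, which carries Wnt proteins to the surface, of -0.55 (adjusted p = 0.574). Among 20 other reported Wnt target genes, 6 had an unadjusted p under 0.05, in both directions: Id2 had a log2 change of -0.66, and Cd44, Bmp4 and Apcdd1 of 0.74, 0.84 and 0.83. Without M6 control replicate 2 that of Bmp4 was 2.00 (adjusted p = 0.0474). In M27H4 none of the 74 was called and 2 had an unadjusted p under 0.05, against 1.69% of all genes, and in 3T3-L1 none and 1, against 0.946%.

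Between the lines, 33 of the 74 were called for M27H4 against M6 (18 higher, 15 lower), 38 for 3T3-L1 against M6 (17 and 21) and 41 for 3T3-L1 against M27H4 (18 and 23). These are 44.6, 51.4 and 55.4%, beside 30.2, 39.4 and 36.6% of all genes tested. Of 15 genes for secretion and non-canonical receptors, 8, 11 and 11 were called (53.3, 73.3 and 73.3%). Celsr2, a planar polarity cadherin, was at 69.2 CPM in M6, 2.83 in M27H4 and 0.184 in 3T3-L1 control, while Prickle2 ran the other way, at 0.0291, 1.33 and 13.9. Of 22 destruction complex and cytoplasmic genes, 6, 10 and 10 were called (27.3, 45.5 and 45.5%, the first below the share of all genes), among them Dact3, a Dishevelled antagonist, at 0.508 CPM in M6, 7.39 in M27H4 and 14.6 in 3T3-L1. Ctnnb1, the gene of beta-catenin itself, was at 1502 CPM in M6, 954 in M27H4 (log2 -0.66, edgeR adjusted p = 0.0118) and 738 in 3T3-L1 (log2 -1.03, adjusted p = 0.001). The first call ended in 3 alternatives, among them the fit without M6 control replicate 2 (adjusted p = 0.0661). Of 14 nuclear partners 4, 7 and 7 were called (28.6% for the first, again below that share), with Tle4, a corepressor, at 0.0517, 0.0637 and 11 CPM in M6, M27H4 and 3T3-L1. Of the 20 other target genes 12, 8 and 11 were called, with Bmp4 at 0.197 CPM in M6, 174 in M27H4 and 0.306 in 3T3-L1 control. Of 13 family members outside the 50, 3 were tested, of which Kremen1, a Dkk receptor, was at 71.9 CPM in M6, 29.2 in M27H4 and 24.8 in 3T3-L1 control.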

How the data were processed

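Total RNA was purified on RNeasy columns, depleted with Ribo-Zero Gold and made into strand-specific SureSelect libraries, per the labels. Reads were handled with cutadapt, HISAT2, StringTie and edgeR on the mm10 build, per the submitters' processing notes; the annotation and the strand setting of counting are not given in the sources used here. The values of the deposited gene table were treated like estimated counts (expected counts), since StringTie is among the named tools; it holds whole numbers for 48440 genes in 21 columns. Technical repeats of a sample, so named in the labels, were added up, which gave 14 replicates. Deposited CPM tables were not used; 1 of their columns matched no sample.

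edgeR 4.0.16 (R 4.3.3; TMM, filterByExpr, robust quasi-likelihood, 6 group means, 8 residual degrees of freedom) tested 21237 genes, with Benjamini-Hochberg adjustment and calls under 0.05. SE is the log2 change over the root of F. Levels are CPM of the effective library size. DESeq2 1.42.0, limma 3.58.1, RLE factors, no filter, single comparisons, left-out replicates and a replicate block were alternatives. Scripts were tested on simulated data. Positions are GENCODE M21 (48058 identifiers matched).

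The genes, lists and tests were chosen with earlier results of these data known. Replicate values are given for the 4 smallest p of each treatment, the highest levels per role and the 10 largest called line differences; others by range, or as chosen after seeing values. Same-numbered M27H4 replicates deviated together (r = 0.353, 0.249 and 0.24), so that pairing was taken from the data. No molecular identifiers are described, so reads may be copies of one molecule, and intervals on counts cover counting error only.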

Additional observations from a re-analysis of the deposited data

How the results depend on the processing

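In the M6 knockdown, the count of 0 called genes became 1 by DESeq2 and 1 by limma voom (Wnt7a in both) and 2 with a replicate block (Wnt7a, adjusted p = 0.00639, and Nkd2, adjusted p = 0.0068). M6 and 3T3-L1 have only 2 pairs, so each line gives a single correlation, whose sign turns when the numbers are swapped. Same-numbered replicates deviated together in both (r = 0.334 in M6 and 0.245 in 3T3-L1, against -0.334 and -0.245 when swapped). A single correlation a line is too little to establish a pairing. Same-numbered 3T3-L1 replicates shared their lanes, and replicate 1 of both M6 groups lay in lane A alone. With the block, the counts were 0 in M27H4 and 0 in 3T3-L1, and 26, 31 and 22 in the line comparisons. No other alternative called any of the 50 genes with knockdown or overexpression, or for the difference between the overexpression effects. Between M27H4 and M6 control the count of 27 fell to 14 with lane-separated columns, an alternative chosen after seeing the data, where 26 of the 27 were tested. Leaving out 1 replicate gave 0 to 0 calls in each treatment, 19 to 25 between M27H4 and M6, 26 to 29 between 3T3-L1 and M6, and 19 to 23 between 3T3-L1 and M27H4; where it leaves 1 replicate in a group, that replicate is assumed to vary like the other groups. Uncalled overexpression changes near 0 turned their direction when 1 replicate was left out: the log2 values ran in M27H4 from -0.55 to 0.01 for Sfrp1 and from -0.37 to 0.07 for Rnf43, and in 3T3-L1 from -0.16 to 0.02 for Wnt5a, from -0.45 to 0.53 for Sfrp2 and from -0.36 to 0.97 for Lef1. No called line difference of the 50 genes, and none of the M6 knockdown changes recomputed, turned its direction. With the block, Prickle1 and Apcdd1, outside the 50, were also called in the M6 knockdown (adjusted p = 0.0265 and 0.0273). Of the called differences, 15 of 27, 6 of 30 and 3 of 22 lost their call under at least 1 alternative. Depth limits the genes at trace level: a group with fewer than 3 counts sets only a bound.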
